A study of Mus musculus with 8 samples.

Results

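The voltage-gated potassium channel genes were examined as 34 listed genes, and H3K27me3 was compared between WT and MommeD43 neural stem cells (NSCs) over every deposited region that lay on the body of a listed gene or within 5 kb of it. The list gave 35 regions over 28 genes, out of 13585 regions in the whole table, of which 11707 were autosomal. All 35 were autosomal, and each was counted once because no region touched more than 1 of the listed genes. The remaining 6 genes, Kcna4, Kcnd2, Kcnd3, Kcnv1, Kcnv2 and Kcnq5, had no region. The genes were listed by family and not by their measured values.

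The cells were female NSCs of strain C57BL/6J, grown from E14.5 embryonic cortex for under 10 passages, with 3 independent cell lines per genotype. SMCHD1 is a chromatin protein needed for silencing of the inactive X chromosome and of several gene clusters, and both genotypes carried a GFP tag on endogenous Smchd1. WT cells were Smchd1GFP+/+, and MommeD43 cells were homozygous for the MommeD43 missense variant on the tagged allele. H3K27me3 was measured by ChIP-seq, and the question was whether the mark lay differently over these genes in cells with the variant. The deposited values were 1 log2 normalized read count per region and genotype, which the authors had averaged from 3 ChIP libraries, so no value here carries an SD or n and no difference has a replicate check. The single whole cell extract library of each genotype was not analysed here. The paper cautions that ChIP-seq is poorly suited to comparing amounts of H3K27me3 between genotypes. Higher and lower therefore refer here to normalized read counts and not to absolute amounts of the mark. By immunofluorescence, the paper reported a modest decrease of H3K27me3 in MommeD43 NSCs, on the inactive X chromosome and over the whole nucleus.

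Voltage-gated potassium channels open when the membrane depolarizes, let potassium leave the cell, and so end action potentials and set firing rates. Pore subunits of the Shaker (Kv1), Shab (Kv2), Shaw (Kv3), Shal (Kv4), Kv7 and EAG/ERG/ELK families form working channels, whereas the silent subunits of the Kcnf, Kcng, Kcns and Kcnv genes form no channel alone and modify Kv2 channels. Most of these genes are known for their use in mature neurons, heart or skeletal muscle. H3K27me3 is placed by Polycomb repressive complex 2, commonly around CpG-rich starts of genes that are not in use, so developmental and neuronal genes are frequent carriers of the mark in stem cells.

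Promoter sequences are shown for 5 genes to let the base composition of their starts be seen next to the values. Each is the 250 bases before the RefSeq transcription start on GRCm38.p6, 5′ to 3′ on the gene's strand, with every CG dinucleotide in capitals. Genes whose window overlapped an exon were passed over.

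Kcna5 had the highest difference (MommeD43 minus WT) of the regions that hold a gene start, Kcnh7 the lowest, and Kcns1 the highest mean value among genes that could be shown. Kcna4 and Kcnd2 had no region. The windows lie at chr6:126535556-126535805 on the minus strand for Kcna5, chr2:63184288-63184537 minus for Kcnh7, chr2:164171114-164171363 minus for Kcns1, chr2:107290339-107290588 plus for Kcna4 and chr6:21215096-21215345 plus for Kcnd2.
Kcna5: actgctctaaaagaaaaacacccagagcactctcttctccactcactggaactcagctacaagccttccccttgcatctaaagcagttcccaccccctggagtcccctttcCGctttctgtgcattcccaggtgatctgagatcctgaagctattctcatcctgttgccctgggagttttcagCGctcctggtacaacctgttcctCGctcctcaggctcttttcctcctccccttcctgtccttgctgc
Kcnh7: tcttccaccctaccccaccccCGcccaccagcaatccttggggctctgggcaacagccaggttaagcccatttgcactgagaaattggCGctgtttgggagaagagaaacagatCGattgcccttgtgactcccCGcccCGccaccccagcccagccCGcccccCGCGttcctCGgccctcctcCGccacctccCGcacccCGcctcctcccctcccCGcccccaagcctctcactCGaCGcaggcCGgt
Kcns1: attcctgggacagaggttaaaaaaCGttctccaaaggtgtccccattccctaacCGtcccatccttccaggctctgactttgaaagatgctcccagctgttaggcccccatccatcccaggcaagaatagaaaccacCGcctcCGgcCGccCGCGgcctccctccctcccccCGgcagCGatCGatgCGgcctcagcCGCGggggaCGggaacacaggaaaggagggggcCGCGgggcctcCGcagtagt
Kcna4: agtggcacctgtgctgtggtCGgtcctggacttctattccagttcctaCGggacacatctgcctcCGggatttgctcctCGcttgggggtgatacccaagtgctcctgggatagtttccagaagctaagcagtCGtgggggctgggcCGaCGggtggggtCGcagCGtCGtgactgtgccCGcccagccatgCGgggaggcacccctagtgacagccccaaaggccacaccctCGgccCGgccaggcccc
Kcnd2: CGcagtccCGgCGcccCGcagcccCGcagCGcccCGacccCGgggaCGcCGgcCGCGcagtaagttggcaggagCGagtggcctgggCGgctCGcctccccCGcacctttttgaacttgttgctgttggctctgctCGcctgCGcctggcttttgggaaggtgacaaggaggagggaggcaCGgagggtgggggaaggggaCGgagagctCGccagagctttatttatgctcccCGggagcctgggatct

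The Kcna5 window held 3 CG and 53.2% G or C, far fewer CG than the Kcnh7 window with 16 and the Kcns1 window with 17. A CpG-rich start was not restricted to genes with a region, since the Kcna4 window held 14 CG and the Kcnd2 window 22. In the 300 bases from 250 before to 50 after the GENCODE start, the 34 genes had a median of 17.5 CG, against 12 over the 20807 autosomal protein-coding genes, of which 94.9% held at least 1. The 26 genes whose start lay in a region had a median of 19 CG and the other 8 a median of 12.5. Across the 26 start regions the CG count was weakly and inversely related to the difference between genotypes (Spearman's rho -0.39 across genes, which are not independent replicates).

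An H3K27me3 region held the annotated start of 26 of the 34 genes, or 76.5%, whereas 6023 of 20807 autosomal protein-coding genes, or 28.9%, had their start in a region. The corresponding share was 67.6% of 37 other potassium channel genes, 62.5% of 16 auxiliary subunit genes and 44.4% of 18 voltage-gated sodium and calcium channel genes. These shares are descriptions of lists that were chosen with earlier results of the data known, and no test was made of them. A single region was found at 23 of the 28 genes, 2 at Kcnh1, Kcnq3, Kcng1 and Kcng2, and 4 at Kcnh7. The 35 regions spanned 871 kb in total and were 5750 to 203600 bp long (median 14150 bp, against 10400 bp for the other autosomal regions). Of these regions, 6 also overlapped other protein-coding genes, and 7 contained no exon of the listed gene.

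Per kilobase of region, the median level over the 35 regions was 48.4 normalized reads in WT and 54.0 in MommeD43. The other autosomal regions had medians of 36.0 and 37.0, and those among them that hold a gene start had 43.2 and 46.9. Levels per kilobase within the family ran from 15.7 at Kcna5 to 227 at Kcnc4 in WT, and from 2.53 in an intron of Kcnh7 to 294 at Kcna7 in MommeD43.

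**Figure D1:**
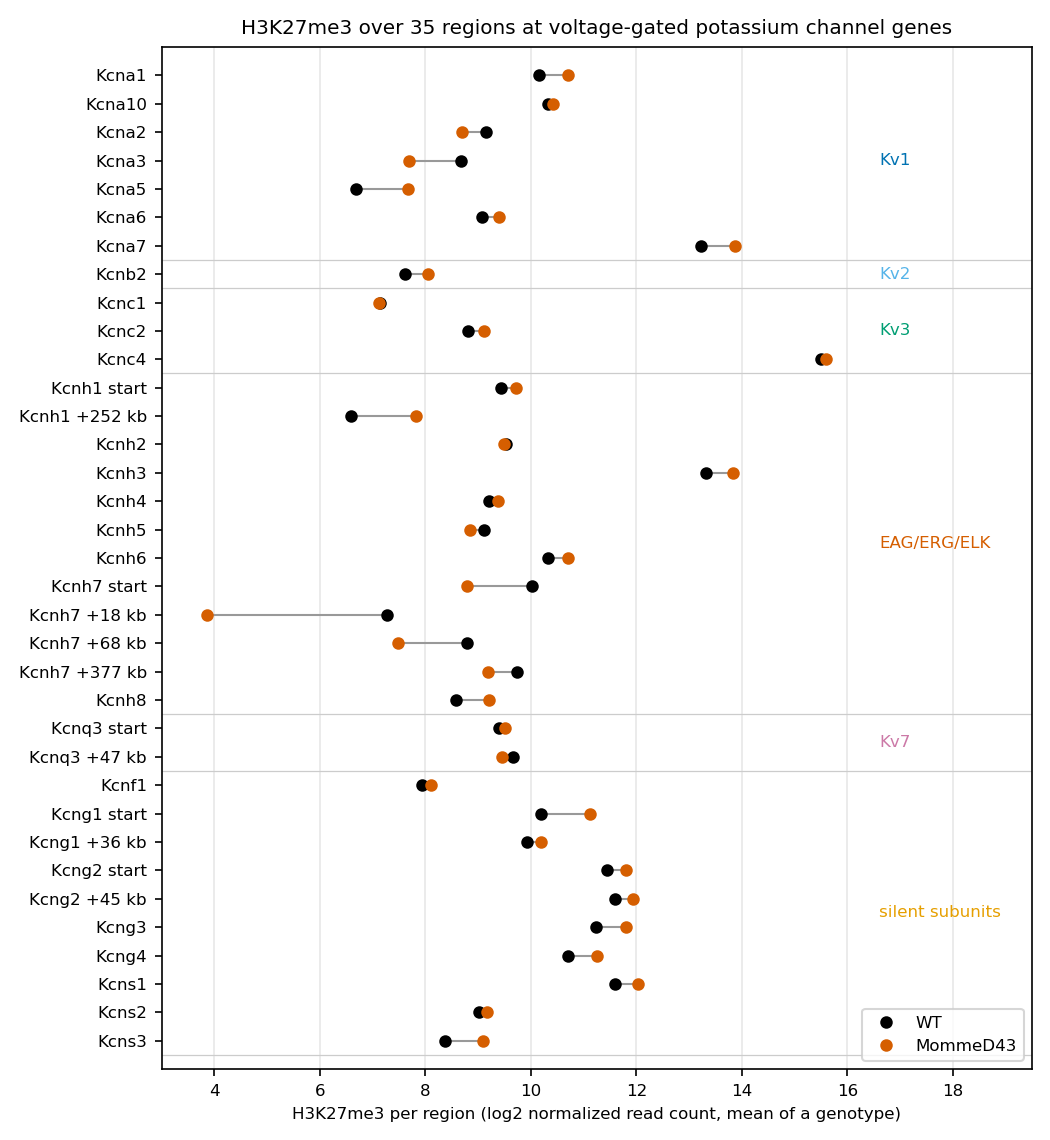
Log2 normalized H3K27me3 read count of each of the 35 regions (horizontal axis) in WT (black) and MommeD43 (orange), each point being the authors' mean of 3 libraries, so that no error bar can be drawn. Regions of a gene with several are named by the distance of their middle from the gene start, and the widest separation, -3.42, is at 18 kb in Kcnh7, where WT lies above MommeD43 in all 4 regions.

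Over the 35 regions, the median difference between genotypes was 0.28 on the log2 scale, with quartiles of -0.04 and 0.53, against a median of 0.07 over the 11672 other autosomal regions. It was above 0 in 25 regions, or 71.4%, and below 0 in 10, compared with 57.7% of autosomal regions above 0. Setting the total of all regions, with the 1878 X-linked ones, equal between the genotypes lowers every difference by 0.24. That leaves 19 regions, or 54.3%, above 0 (32.9% of autosomal regions). It turns the sign of 6, those at Kcna10, Kcnc4, Kcnh4, Kcnf1, Kcns2 and the start of Kcnq3. Setting the autosomal median to 0 instead lowers every difference by 0.075 and turns no sign, leaving 25 above 0. Autosomal regions are then split evenly by construction. Regions that hold a gene start had a median difference of 0.34, compared with 0.17 for the 4396 other autosomal regions that hold a start. The 9 regions away from a start had a median of -0.21, and those at Kcnh7 account for 3 of the 5 that were below 0.

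Only the intronic region of Kcnh1 was higher in MommeD43 by at least 1 (2.28% of autosomal regions were), and 3 regions, all at Kcnh7, were lower by at least 1 (2.93% of autosomal regions were). The counting error, the standard error that Poisson counting alone gives a difference for reads spread evenly over 3 libraries, had a median of 0.08 over the 35 regions and reached 0.37. The difference lay outside its 95% counting interval in 29 of 35 regions, or 82.9%, against 63% of autosomal regions. Molecules were not tagged before amplification, so reads can be copies of each other, and these intervals cover counting error only and leave out the spread between cell lines. A region with less mark in every cell cannot be told apart here from one that lost it in a share of the cells or on 1 allele.

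Differences across the autosomes followed base composition, with Pearson's r of 0.59 and Spearman's rho of 0.58 between the difference and GC content over the 11672 other autosomal regions. Over the 35 channel regions r was 0.74 and rho 0.46, and without the 4 Kcnh7 regions, which had the lowest GC content, r was 0.23 and rho 0.23. Regions are not independent replicates, and all share the same 2 columns. Each region was therefore also set against the 200 autosomal regions nearest to it in GC content and mean value that touch none of the listed genes. Its difference minus their median difference is called the excess.

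**Figure D2:**
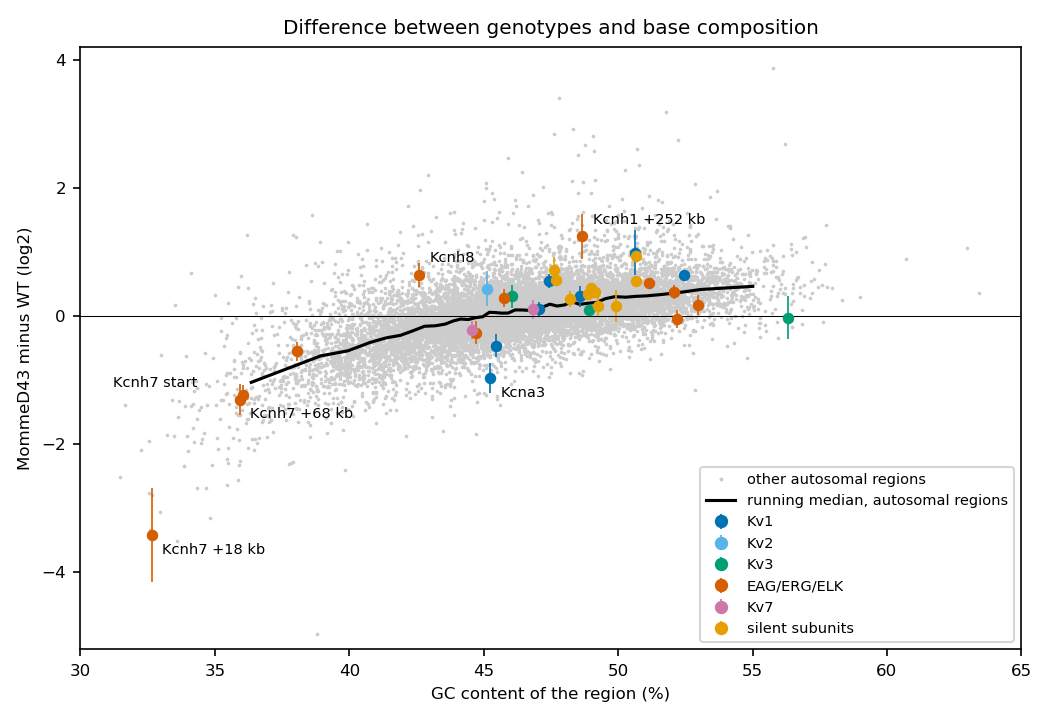
Difference between genotypes on the log2 scale (vertical axis) against GC content in percent, for the 35 channel regions by family, with 95% counting intervals, and for the other autosomal regions in grey. The running median rises with GC content, and the Kcnh7 regions lie at the low end of both axes.

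The excess had a median of 0.04 over the 35 regions, with 19 above 0 and 16 below, so the family as a whole lay close to regions of similar composition and value. Its spread was wider, with an SD over regions of 0.59 against 0.40 for the other autosomal regions, and without Kcnh7 the SD was 0.40. An excess of at least 0.5 was found in 5 regions, those at Kcna5, Kcng1, Kcns3 and Kcnh8 and in the intron of Kcnh1, compared with 8.44% of autosomal regions. An excess of -0.5 or lower was found in 4, those at Kcna3 and 3 of the Kcnh7 regions, compared with 6.8% of autosomal regions. The limit of 0.5 was chosen after the values were seen. Against the quartiles of their own 200 neighbours, 12 regions lay above, 10 below and 13 within.

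**Figure D3:**
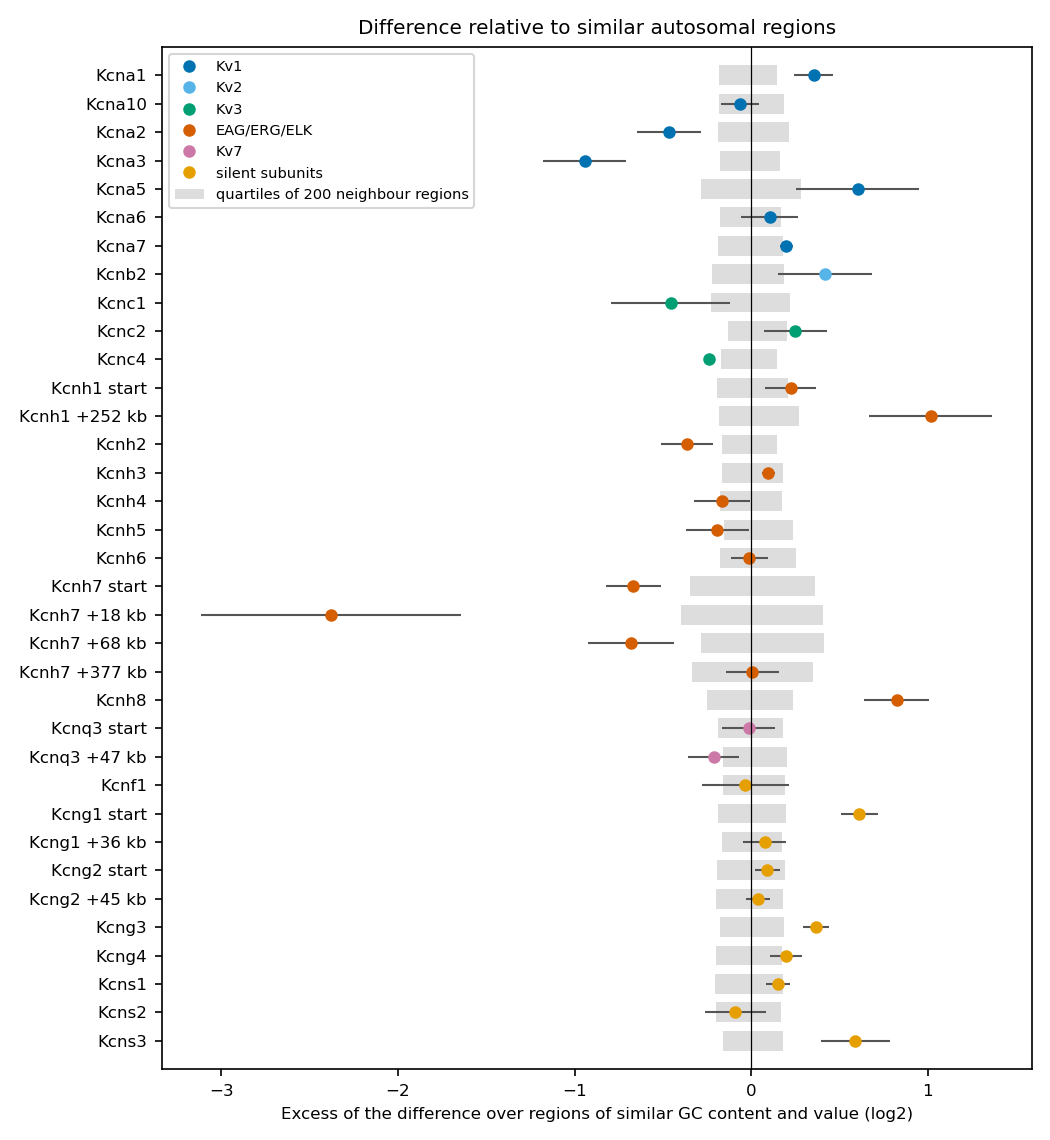
Excess of the difference over 200 autosomal regions of similar GC content and value (horizontal axis, log2) for each of the 35 regions, with 95% counting intervals and, as grey bars, the quartiles of the neighbours around their median. Kcnh7 at 18 kb into the gene lies farthest to the left at -2.38, and the intronic region of Kcnh1 farthest to the right at 1.02.

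Among the Shaker genes, regions over the neighbouring genes Kcna5, Kcna1 and Kcna6 on chromosome 6 were higher in MommeD43, whereas regions at Kcna3 and Kcna2 on chromosome 3 were lower. Over the 7 Kv1 regions the median difference was 0.31 and the median excess 0.10.

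Kcna5 encodes a subunit of delayed rectifier channels of the atria and of smooth muscle, and its region (chr6:126531951-126538450) covered the whole gene. The log2 value was 6.68 in WT and 7.67 in MommeD43, a difference of 0.99 with a counting error of 0.18 and an excess of 0.60. This was the largest difference among the start regions, and it rests on a geometric mean of 31.3 reads per library in WT and 77.2 in MommeD43. Kcna1 encodes a subunit of axonal channels that limit repetitive firing. Its region (chr6:126635901-126654850) stood at 10.16 in WT and 10.70 in MommeD43, 0.55 higher with a counting error of 0.06 and an excess of 0.35. At Kcna6, a related neuronal subunit, the region over the gene start (chr6:126734301-126747700) had 9.08 in WT and 9.39 in MommeD43, a difference of 0.31 with a counting error of 0.08. The excess of 0.10 at Kcna6 lay within the quartiles of its neighbours.

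The differences at these genes were ordered along the chromosome, largest at Kcna5. The next region beyond Kcna5, at the neurotrophin gene Ntf3 (chr6:126158151-126171100), had 7.68 in WT and 9.77 in MommeD43, a difference of 2.10 with an excess of 1.92. On the far side of Kcna6, the regions over Ndufa9 and Akap3 differed by -0.11 and 0.06, and the next one, at Ccnd2, by 0.55 with an excess of 0.27, as much as at Kcna1. The views along these loci were chosen after the values were seen.

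The chromosome 3 genes showed the opposite sign at 2 of 3 regions. Kcna3 encodes the main voltage-gated potassium channel of T cells and is also used in the olfactory bulb. Its region (chr3:107030451-107040400) covered the whole gene and had 8.67 in WT and 7.70 in MommeD43, a difference of -0.97 with a counting error of 0.12. Its excess of -0.94 was lower than that of every other region but the Kcnh7 region at 18 kb, and its GC content of 45.2% was near the autosomal median of 46.3%. Kcna2, which encodes an axonal subunit that pairs with that of Kcna1, was reached only by a region that ended 4496 bp before its start (chr3:107084001-107096650). That region had 9.16 in WT and 8.69 in MommeD43, a difference of -0.46 with a counting error of 0.09 and an excess of -0.46. Kcna10 encodes a subunit used in hair cells of the inner ear, and its region (chr3:107185251-107209000) began 2195 bp downstream of the start and covered 82.7% of the gene. Values there were 10.32 in WT and 10.43 in MommeD43, and the difference of 0.10 was within its counting interval and became -0.14 with totals set equal.

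**Figure D4:**
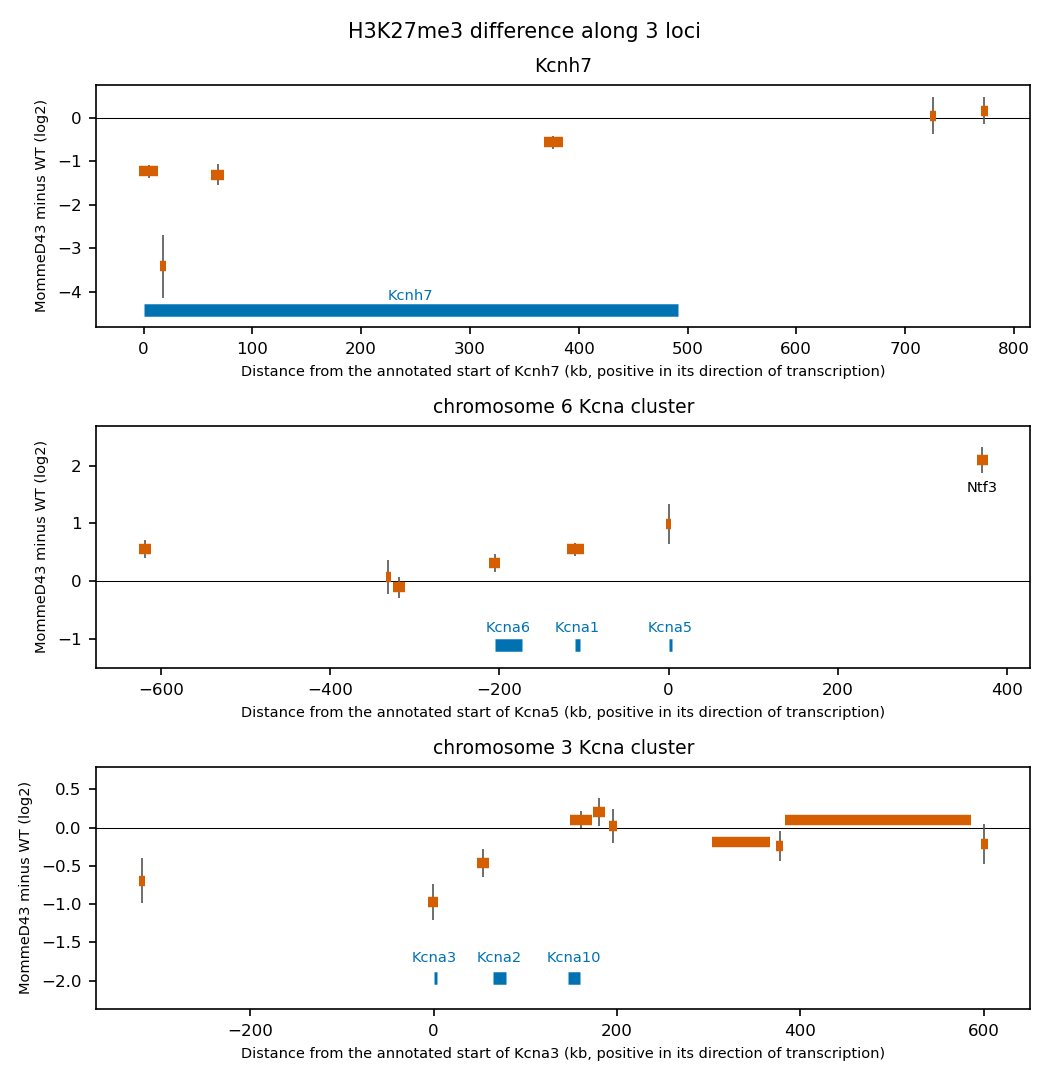
Difference between genotypes (vertical axis, log2) of each region along 3 loci, with 95% counting intervals as vertical lines, against the distance in kb from the start of Kcnh7, Kcna5 or Kcna3. Orange bars span the regions and blue bars the listed genes, and the differences at Kcnh7 and Kcna3 lie below 0 while those at Kcna5, Kcna1 and Kcna6 lie above it.

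Kcna7, which encodes a subunit used in skeletal muscle and heart, lay inside a long region of 51050 bp on chromosome 7 (chr7:45394701-45445750) that also covered Snrnp70, Ntf5, Lhb, Ruvbl2 and Gys1. The value was 13.23 in WT and 13.87 in MommeD43, a difference of 0.65 with a counting error of 0.02. The excess of 0.20 was above the upper quartile of its neighbours, but the value cannot be assigned to Kcna7 alone.

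Of the Shab genes, only Kcnb2 was listed, which encodes a delayed rectifier that the silent subunits can join. A region over its start (chr1:15284451-15292150) had 7.61 in WT and 8.04 in MommeD43, a difference of 0.43 with a counting error of 0.14 and an excess of 0.42. It covered 1.12% of the gene body of Kcnb2.

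The Shaw genes had a median difference of 0.09 over their 3 regions. Kcnc1 encodes a fast delayed rectifier of fast-spiking neurons. Its start region (chr7:46391751-46397650) had 7.14 in WT and 7.11 in MommeD43, and the difference of -0.03 lay within its counting interval. Since neighbours of like GC content, 56.3% at this region, were higher in MommeD43, the excess at Kcnc1 was -0.46. Kcnc2 encodes a related subunit of cortical interneurons. Its start region (chr10:112267551-112276450) had 8.80 in WT and 9.11 in MommeD43, a difference of 0.31 with a counting error of 0.09. The excess at Kcnc2 was 0.25, and its difference lay above the upper quartile of its neighbours. Kcnc4 encodes a fast-inactivating subunit and lay in the longest region of the family, 203600 bp on chromosome 3 (chr3:107419251-107622850), which also covered other protein-coding genes, so that the value cannot be assigned to Kcnc4 alone. Its values of 15.50 in WT and 15.59 in MommeD43 were the highest of the family in both genotypes. The difference of 0.09 had a counting error of 0.01, an excess of -0.24, and turned to -0.15 with totals set equal.

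Neither of the listed Shal genes had a region. Kcnd2 and Kcnd3 encode the pores of the somatodendritic A-type current of neurons, and the nearest region lay 213596 bp from the body of Kcnd2 and 15899 bp from that of Kcnd3. The same was true of Kcna4 (491439 bp), a Shaker subunit with fast inactivation, Kcnq5 (229703 bp), Kcnv1 (278234 bp) and Kcnv2 (93972 bp). Regions were placed only where the authors called a peak in either genotype, so these genes have no value here, which is not a value of 0. Kcnd3 had 36 CG in its start window and Kcnv2 4, so CG number alone did not separate the genes without a region from the rest.

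Kcnq3 encodes a subunit of the M-current, a slow potassium current that muscarinic signals suppress. Its start region (chr15:66280401-66291100) had 9.41 in WT and 9.51 in MommeD43, and the difference of 0.10 was within its counting interval and became -0.14 with totals set equal. A second, intronic region 47 kb downstream of the Kcnq3 start (chr15:66231501-66246850) had 9.66 in WT and 9.45 in MommeD43, a difference of -0.21 with a counting error of 0.07 and an excess of -0.21.

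The EAG/ERG/ELK genes held both ends of the range. All 8 had a region over their start, and 12 regions in all had a median difference of 0.06, with 6 above 0 and 6 below.

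Kcnh7 encodes an ERG channel subunit of neurons, and all of its 4 regions were lower in MommeD43. The start region (chr2:63170601-63188650) had 10.01 in WT and 8.78 in MommeD43, a difference of -1.23 with a counting error of 0.08. Next to it, 18 kb into the gene, a region of 5750 bp (chr2:63163401-63169150) had 7.28 in WT and 3.86 in MommeD43. That difference of -3.42, with a counting error of 0.37, was the largest of the family in either direction and rests on 47.6 reads per library in WT and 5.52 in MommeD43. A region at 68 kb (chr2:63110001-63122500) had 8.78 in WT and 7.48 in MommeD43, a difference of -1.31 with a counting error of 0.12. The last, at 377 kb (chr2:62798901-62816500), had 9.73 in WT and 9.18 in MommeD43, a difference of -0.55 with a counting error of 0.08.

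The size of the Kcnh7 differences did not vary steadily with distance from the start. These 4 regions were also poor in G and C, with 36.0%, 32.6%, 35.9% and 38.1% in the same order. Their neighbours, picked by rank in GC content and value together, were lower in MommeD43 too, by medians of -0.56, -1.04, -0.62 and -0.56. The GC content of those neighbours was not recorded, so how closely it matched at this end of the range is not known. The excess at these regions may therefore not be fully matched for composition. The excess was -0.67 at the start, -2.38 at 18 kb, -0.68 at 68 kb and 0.01 at 377 kb. With the autosomal trend with GC content removed, the differences were -0.20, -2.38, -0.27 and 0.21, so only the 18 kb region was lower by at least 1. The trend was held level below its lowest GC bin, so the start, 18 kb and 68 kb regions had the same amount removed. The 18 kb region, the poorest in GC, was thus not corrected for its own GC content. The part of base composition in the other 3 was not tested further. The 10 regions nearest to Kcnh7 on the chromosome, 5 on each side, differed by a median of 0.01, from -0.65 to 0.18. The promoter shown above is CG-rich although the region around it is not.

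Kcnh1 encodes the founding EAG channel, which is expressed in brain and in many dividing tumour cells. Its start region (chr1:192183351-192197500) had 9.44 in WT and 9.73 in MommeD43, a difference of 0.28 with a counting error of 0.07 and an excess of 0.22. An intronic region 252 kb into Kcnh1 (chr1:192440001-192446050) had 6.59 in WT and 7.83 in MommeD43. Its difference of 1.24, a ratio of 2.37 with a counting error of 0.18 on the log2 scale, was the highest of the family, and its excess was 1.02. It rests on 29.4 reads per library in WT and 86.3 in MommeD43, and it contains no exon of Kcnh1. Kcnh5, the other EAG gene, is expressed in brain. At its start (chr12:75170901-75184600) the value was 9.11 in WT and 8.85 in MommeD43, a difference of -0.26 with a counting error of 0.09 and an excess of -0.19.

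Among the other ERG genes, Kcnh2 encodes the channel of the rapid delayed rectifier current of the heart. Its start region (chr5:24349551-24362800) had 9.53 in WT and 9.48 in MommeD43, and the difference of -0.05 was within its counting interval. The excess at Kcnh2 was -0.36, below the lower quartile of its neighbours, and its start window held 51 CG, the most of the family. Kcnh6, another ERG gene, had a region over its start and 79.4% of its body (chr11:106005651-106029100), with 10.33 in WT and 10.70 in MommeD43. That difference of 0.37, with a counting error of 0.05, matched its neighbours, the excess being -0.01.

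The ELK genes Kcnh8, Kcnh3 and Kcnh4 encode relatives of EAG found mainly in the nervous system. Kcnh8 had a start region (chr17:52597701-52608250) at 8.57 in WT and 9.21 in MommeD43, a difference of 0.64 with a counting error of 0.10. Its GC content was 42.6%, its neighbours had a median of -0.18, and its excess was therefore 0.82, the highest among start regions. Kcnh3 lay in a region of 65450 bp (chr15:99208851-99274300) with Spats2, Mcrs1 and Fam186b, at 13.33 in WT and 13.84 in MommeD43. The difference of 0.51 there had a counting error of 0.02 and an excess of 0.10, and it cannot be assigned to Kcnh3 alone. Kcnh4 shared its region (chr11:100745601-100762450) with Hcrt, the orexin gene, and had 9.21 in WT and 9.39 in MommeD43. This difference of 0.17, with a counting error of 0.08, turned to -0.07 with totals set equal.

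The silent subunit genes had the most uniform sign. All 10 of their regions, over 8 genes, were above 0, with a median of 0.41, where 57.7% of autosomal regions were. With totals set equal 8 of 10 were above 0, against 32.9% of autosomal regions. Their median excess was 0.12, and it was above 0 in 8 of 10 regions, against 5835 of 11707 autosomal regions. The neighbours of these regions were also higher in MommeD43, with median differences from 0.13 at Kcns3 to 0.34 at Kcng4.

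Kcng1 showed the largest difference of this group. Its start region of 36500 bp (chr2:168270501-168307000) had 10.19 in WT and 11.12 in MommeD43, a difference of 0.93 with a counting error of 0.05 and an excess of 0.61. A second region beyond the 3′ end of Kcng1 (chr2:168235701-168255850) had 9.93 in WT and 10.19 in MommeD43, a difference of 0.26 with a counting error of 0.06 and an excess of 0.08. The larger difference was thus at the start of Kcng1. Kcng2 was covered over 97.1% of its body by 2 adjacent regions. The one at the start (chr18:80351451-80381350) had 11.44 in WT and 11.81 in MommeD43, a difference of 0.37, and the other (chr18:80288901-80349400), which also covers Pqlc1, had 11.60 in WT and 11.94 in MommeD43, a difference of 0.34. Both counting errors at Kcng2 were under 0.04, and the excesses were 0.09 and 0.04.

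Kcng3 had the densest region of the silent subunit genes (chr17:83621901-83639200), with 139 normalized reads per kb in WT and 206 in MommeD43. On the log2 scale the region had 11.23 in WT and 11.80 in MommeD43, a difference of 0.57 with a counting error of 0.04 and an excess of 0.37. Its start window was rich in CG, with 49. Kcng4 was covered whole (chr8:119619651-119654800), with 10.71 in WT and 11.25 in MommeD43, a difference of 0.54 with a counting error of 0.05 and an excess of 0.19.

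Kcns3, a silent subunit gene of the Kcns group, had a start region (chr12:11144601-11155750) at 8.38 in WT and 9.10 in MommeD43. The difference of 0.72 had a counting error of 0.10, and the excess was 0.59, well above the upper quartile of its neighbours. Kcns1 lay in a region shared with Wfdc5 and Wfdc12 (chr2:164158851-164192950), at 11.59 in WT and 12.04 in MommeD43, a difference of 0.45 with a counting error of 0.03 and an excess of 0.15. Kcns2 and Kcnf1 differed least. Kcns2 (chr15:34830951-34843000) had 9.01 in WT and 9.17 in MommeD43, and Kcnf1 (chr12:17170851-17179300) had 7.94 in WT and 8.10 in MommeD43. Both differences, of 0.16, lay within their counting intervals and were below 0 with totals set equal, at -0.09 for Kcns2 and -0.08 for Kcnf1.

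Regions near the 5 kb limit of the rule were few. The regions of Kcna2 and of the 3′ side of Kcng1 were inside it, at 4496 and 4267 bp from the gene body. Just outside lay a region 5204 bp from Kcng4, with a difference of 0.40, and one 7109 bp from Kcnq3, with a difference of -0.36.

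Medians of the 3 other ion channel lists reported here differed from list to list. The 43 regions of other potassium channel genes, which include inward rectifier and leak channels, had a median difference of 0.27 and a median excess of 0.05, and regions at Kcnk4 (1.10) and Kcnk9 (1.02) were higher by at least 1. Auxiliary subunit genes had a median of 0.21 over 24 regions, with a region at Kcnab2 higher by 1.12. Voltage-gated sodium and calcium channel genes had a median of 0.02 over 42 regions and a median excess of -0.11, with a region at Scn8a higher by 1.40.

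Geometric mean counts per library over the channel regions had medians of 213 reads in WT and 255 in MommeD43, against 113 and 142 over the other autosomal regions, and 4 regions in WT and 1 in MommeD43 had under 50. Of 10 marker genes of neural stem cells, Sox2, Vim, Fabp7 and Sox9 had no region, while Nes, Pax6, Slc1a3, Hes1, Hes5 and Msi1 had one. Differences at those 6 genes ran from -0.08 at Msi1 to 1.18 at Pax6, with a median of 0.21 and a median excess of -0.04. Regions were also present at 3 of 5 neuronal markers, where all 13 regions, most of them at Rbfox3, were above 0 (57.7% of autosomal regions were), with a median of 0.62 and a median excess of 0.25 over the autosomal ones. Of the regions at the X-linked gene Dcx, 2 were higher by 1.03 and 1.09, where 29.8% of X-linked regions were higher by at least 1, and the third differed by 0.15, below 0 with totals set equal. At 3 of 4 oligodendrocyte markers all 4 regions were above 0 (median 0.57, median excess of 0.12 over the autosomal ones). At 2 of 3 astrocyte markers 5 of 6 regions, all at Aldh1l1, were below 0 (median over the 6 of -0.16, median excess of -0.29), and at 2 of 3 mesenchymal markers the differences were 0.20 at Col1a1, below 0 with totals set equal, and -0.14 at Twist1. The part of other cell types in the differences at the channel genes was not tested. A region shows that the mark was found at a gene and does not measure its expression, so the labelled cell type could not be checked by expression here.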

How the data were processed

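H3K27me3 was measured in 8 libraries, 3 ChIP libraries per genotype from separate NSC lines and 1 whole cell extract library per genotype. The authors trimmed reads with Trim Galore 0.4.4, aligned them with Bowtie2 2.3.4.1 to GRCm38.p6, extended them by 150 bp, called peaks in SeqMonk on merged replicates, widened peaks of both genotypes by 2.5 kb and joined those closer than 1 kb. The deposited table holds log2 counts per region, which the authors scaled to total library size and averaged over the libraries of a genotype, in 2 columns, so no test could be run. Values are not divided by length and whole cell extract is not subtracted. Labels describe micrococcal nuclease digestion and the methods Covaris shearing, so the fragmentation is uncertain.

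The genes and lists were chosen with earlier results of these data known. Every listed gene was to be named, by the region holding its annotated start or else its region of highest mean value, and in the other lists every region past a difference of 1. One further list of channel genes is not reported here. Genes came from GENCODE mouse release 21. Region ends were taken from the End column, which differed from the end in the region name in 8582 regions. A mean of 3 log2 counts gives the product of the counts, and 99.9% of 1139 low products in WT and 99.6% of 684 in MommeD43 were within 0.1 of a whole multiple of 1 constant, against 20% by chance. This put 1 read at 3.27 normalized counts in WT and 2.63 in MommeD43, from which counting errors followed. The depth step and the comparison with neighbours were tested on simulated data. Computations ran in Python 3.11.15 with pandas 2.3.3, numpy 2.4.6, scipy 1.17.1 and matplotlib 3.10.9. Alternatives changed the scaling, trends with GC content and abundance (40 bins), pseudocount, depth minimum, flank, neighbour number and features, and the regions and genes included.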

Additional observations from a re-analysis of the deposited data

How the results depend on the processing

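The median difference of 0.28 over the channel regions became 0.042 when the total of all regions was set equal, 0.13 with the GC trend removed and 0.15 with the abundance trend removed. The count of regions higher by at least 1 went from 1 to 2 with the abundance trend removed, when Kcna5 joined the Kcnh1 intron, and to 0 among start regions only, where the count lower by at least 1 went from 3 to 1. With either rescaling or with the abundance trend removed, Kcna3 joined the regions lower by at least 1, making 4. With the GC trend removed the 2 such regions were Kcnh7 at 18 kb and Kcna3. With a minimum of 50 reads, Kcnh7 at 18 kb, the region of largest difference, was left out, and 2 remained. This minimum was not required of each genotype alone. The Kcnh1 intron, the only region higher by at least 1, was kept although it had 29.4 reads per library in WT. The median excess ran from 0.01 to 0.10 under the other alternatives for neighbours, depth, flank and regions. Leaving out in turn the Kcna, Kcnb, Kcnc, Kcnf, Kcng, Kcnh, Kcnq or Kcns genes gave a median difference from 0.16 to 0.31. The median excess ran from -0.02 to 0.09, and both were lowest without the Kcng genes. The silent subunit genes were not left out together. Flanks of 0 and 10 kb gave 33 and 37 regions. The limit of 0.5 on the excess was added after the data were seen. Leaving out single libraries could not be done on pooled columns. No paired analysis was possible because each genotype has only 1 pooled column. Depth limits the region at 18 kb in Kcnh7 most, with 5.52 reads per library in MommeD43.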
